A study of Mus musculus with 9 samples.

Results

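The 75 protein-coding histone genes of the mouse count matrix were examined, out of 54232 gene rows. They comprised 67 replication genes, chosen as every gene of the Hist1 to Hist4 clusters by its symbol, and the 8 replacement genes H2afz, H2afx, H2afy, H2afv, H3f3a, H3f3b, H1f0 and H1fx. The replication genes encode the linker histone H1 (6 genes) and the core histones H2A (18), H2B (18), H3 (12) and H4 (13). All libraries came from embryonic stem cells of wild-type (WT) genotype, taken through embryoid body differentiation, in which aggregates of pluripotent cells begin to form derivatives of the germ layers. The 3 groups carry the treatment labels EBD2, EBD5 and EBD6 differentiation, with 3 libraries each, and the labels do not say what the number stands for, nor which mouse line or clone was used. RNA was captured on oligo-dT beads, which bind poly(A) tails, before the libraries were made. Levels are given in CPM, the count relative to library size, scaled by edgeR's TMM method. EBD2 replicates 1 and 2, and EBD6 replicates 2 and 3, showed no difference beyond the sampling noise of their counts (chi-square per gene 0.949 and 1.01) and were counted as 1 sample each. This left 2 EBD2, 3 EBD5 and 2 EBD6 samples, and every list of 7 values below runs in that order.

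Histones package DNA into nucleosomes, in which DNA wraps around a core of H2A, H2B, H3 and H4, and H1 binds where the DNA enters and leaves. Replication histone genes supply the bulk of new histones during S phase. Their messenger RNAs are the known exception among animal mRNAs in that most end without a poly(A) tail, in a stem-loop that the stem-loop binding protein SLBP recognises and that is cut with the help of the U7 small nuclear RNA. Replacement histones are made throughout the cell cycle from ordinary polyadenylated mRNAs and are placed into chromatin outside of replication. In stem cells some replication histone RNA is also known to carry a poly(A) tail. The values below therefore measure whatever histone RNA the oligo-dT capture retained, not the whole histone mRNA pool.

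The stem-loops are shown first because they were found mostly in the replication class. The stem arms are in capitals and the loop and flanks in lower case, in DNA letters from the GENCODE M21 transcripts of the mm10 build.
Hist1h1e (chr13:23621782-23621797, minus strand): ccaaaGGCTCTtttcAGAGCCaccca
Hist1h2bb (chr13:23747203-23747218, plus strand): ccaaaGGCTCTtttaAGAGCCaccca
Hist1h4d (chr13:23581950-23581965, plus strand): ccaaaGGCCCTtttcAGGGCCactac
Hist1h3d (chr13:23576244-23576259, plus strand): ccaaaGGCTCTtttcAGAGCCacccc
Hist4h4 (chr6:136803998-136804013, minus strand): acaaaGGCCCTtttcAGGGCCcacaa
H2afx (chr9:44335240-44335255, plus strand): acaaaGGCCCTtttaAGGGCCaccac
The coordinates cover the 16 bases of stem and loop, with 6 bases in each arm, 4 in the loop and 5 flanking bases on either side. A stem-loop of the histone type was present in the annotated transcripts of 46 of the 67 replication genes and in 1 of the 8 replacement genes, H2afx, the variant whose phosphorylated form marks DNA breaks. Of 21876 other protein-coding genes 23 held it (0.105%). The form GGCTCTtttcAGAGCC was the most frequent, in 26 replication genes, followed by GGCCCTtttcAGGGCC in 7 and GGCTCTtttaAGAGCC in 6.

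Library totals ran from 5453412 to 11703371 counts. Of the 75 genes, 55 passed edgeR's filter on low counts and were tested (47 replication and 8 replacement), 20 were not tested, and 7 had no count in any library. Of the tested replication genes 25 reached the filter's level (1.71 CPM) in 1 group only, which was EBD5 for all 25, so these passed only through the group where they were high. All 10 pluripotency markers examined had counts in every group, and Pou5f1 (Oct4) lay between 176 and 299 CPM. The groups also differed in cell type markers. Visceral endoderm markers summed to 44.2 to 47.8 CPM in EBD2, 2322 to 2360 in EBD5 and 1307 to 1386 in EBD6, with all 8 counted in each group. Mesoderm markers summed to 7.40 to 8.65, 79.1 to 82.3 and 215 to 227 CPM, with Mesp1 at 0 counts in EBD5. Neuroectoderm markers summed to 174 to 189, 94.6 to 99.5 and 244 to 258 CPM, all 6 counted. Fibroblast markers summed to 25.4 to 25.8, 21.2 to 25.1 and 43.0 to 53.0 CPM, with 2 of 8, Lum and Postn, at 0 in EBD2 and Lum at 0 in EBD5. Their part in the histone values was not tested, and in RNA from whole cultures fewer cells of a type and less RNA per cell cannot be told apart.

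Replication histone RNA was high in EBD5 and low in both other groups. Summed over the 67 genes it stood at 114 and 104 CPM in the EBD2 samples, at 491, 484 and 455 CPM in EBD5, and at 90.5 and 87.3 CPM in EBD6. All 3 EBD5 samples lay above all others. The EBD5 mean was 4.37 times that of EBD2 and 5.36 times that of EBD6, and EBD6 stood at 0.816 times EBD2. Even in EBD5 these RNAs took a small part of each library, 0.0449% of counts against 0.0112% in EBD2 and 0.00936% in EBD6. The 8 replacement genes together were more abundant, at 894 and 914 CPM in EBD2, 1283, 1174 and 1301 in EBD5, and 967 and 856 in EBD6, a ratio of 1.39 between the EBD5 and EBD2 means. Per kilobase of exon, the sum of the replication genes was 148 CPM per kb in EBD2, 609 in EBD5 and 102 in EBD6, and that of the replacement genes was 408, 501 and 406. With the shortest protein-coding transcript as the length instead, the replication genes stood at 149, 612 and 102 CPM per kb and the replacement genes at 854, 1273 and 790. The order of the classes in EBD5 therefore turned with the length used, while replacement genes were higher on both lengths in EBD2 and EBD6. These sums are descriptions without a test.

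**Figure D1:**
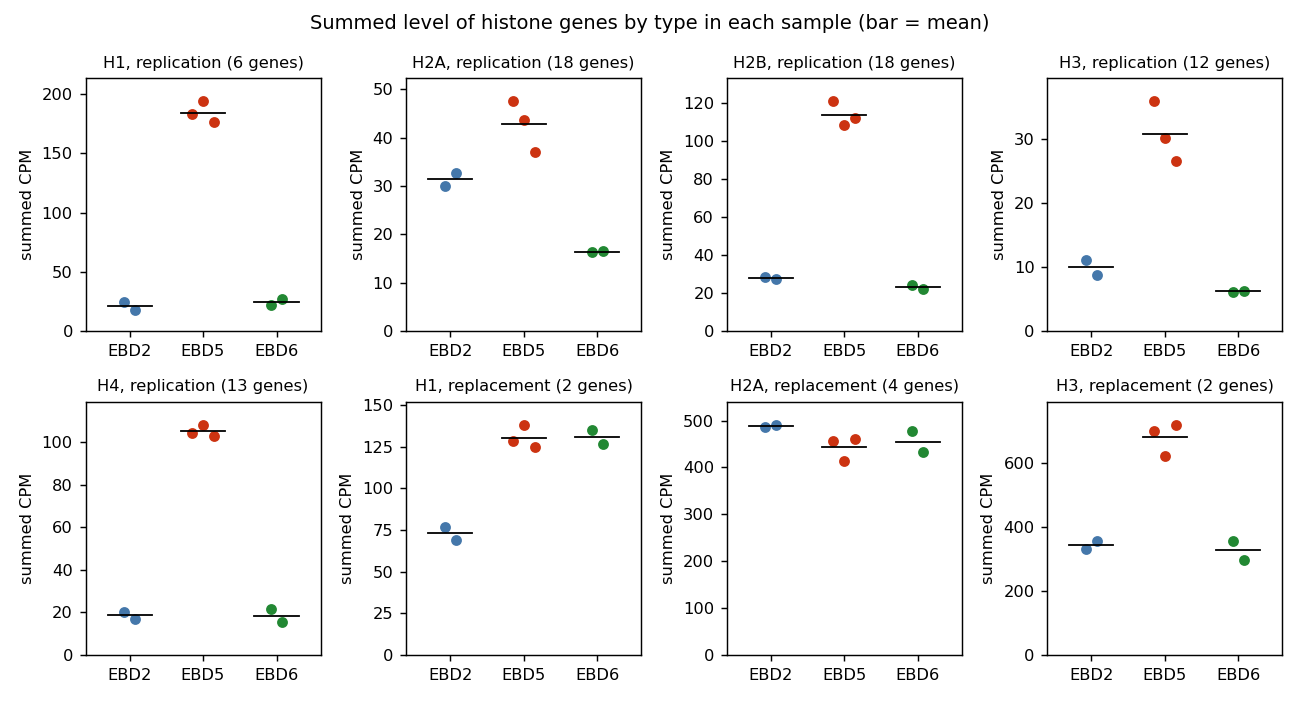
Summed level in CPM (y axis, from 0) of each histone type in each sample (points) of EBD2, EBD5 and EBD6 (x axis), with the group mean as a bar. Each replication type is highest in the 3 EBD5 samples, and replacement H2A lies between 414 and 490 CPM in all 7 samples.

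Between EBD2 and EBD5, 40 of the 67 replication genes were higher in EBD5, 2 were lower, 5 were tested without a call and 20 were not tested (edgeR quasi-likelihood test, adjusted p under 0.05 by the Benjamini-Hochberg method, BH, over all 16168 genes tested). The 40 make up 59.7% of the replication genes, where 34.9% of all genes tested were higher and 35.1% lower. Among the 15 replication genes that reached the filter's level in all 3 groups, 11 were higher and 2 lower. With no filter, 45 of the 68 histone genes with any count were higher and 5 lower, against 19.6% and 19.8% of 33137 genes. The median log2 fold change of the tested replication genes was 2.66, against -0.01 over all genes tested. Of these 47 genes 25 passed the filter through EBD5 alone, which favours a high median. Protein-coding genes with a single exon, as 62 of the 67 replication genes have, gave 92 higher and 106 lower of 279, with a median of -0.13. With a fit that demanded 5 CPM in 3 libraries, 29 histone genes were left and 23 of them were higher. A gene could pass that filter through the 3 EBD5 libraries alone, so it favours genes high in EBD5 and is no stricter check.

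**Figure D2:**
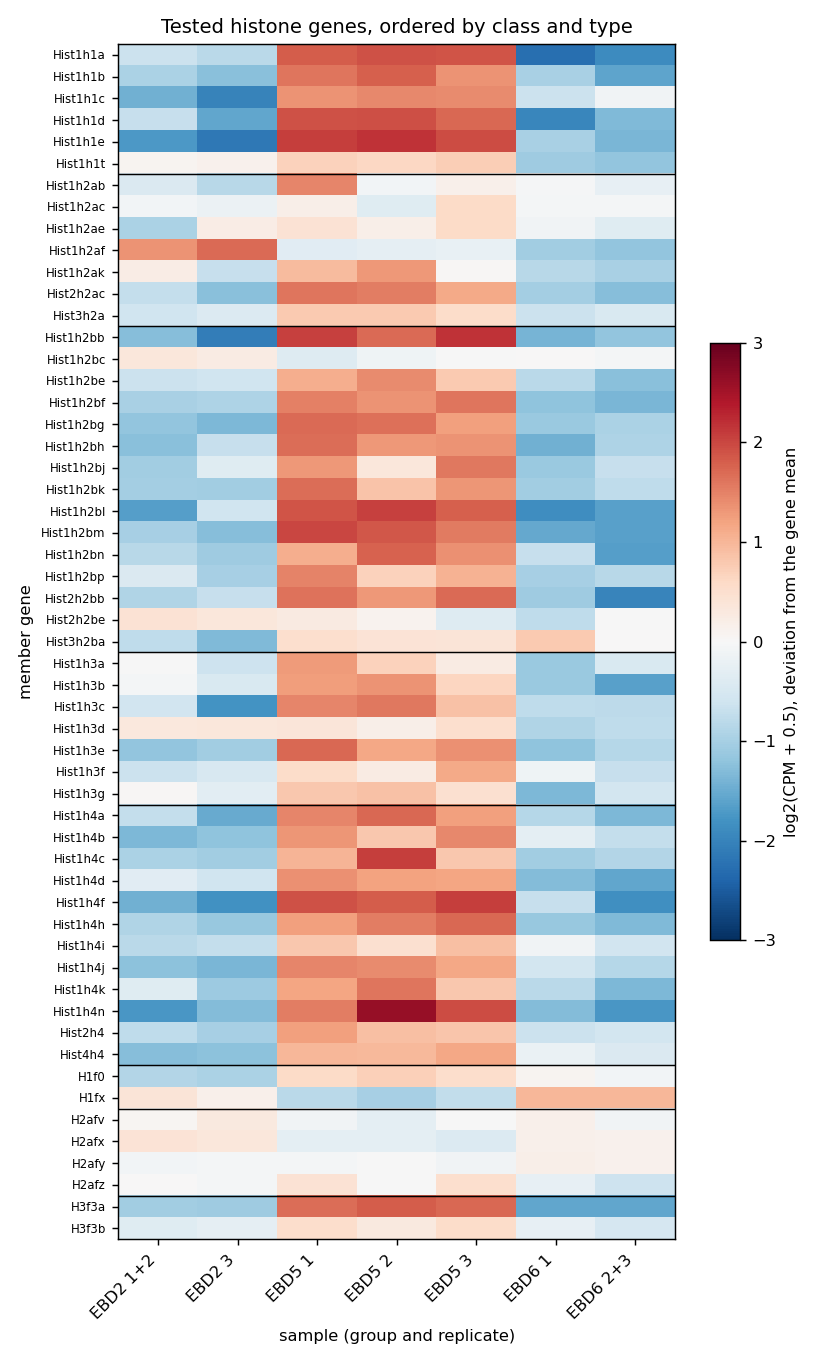
Level of each of the 55 tested histone genes (rows, grouped by class and type) in each of the 7 samples (columns), on a log2 scale as the difference from the gene's mean over samples. Most replication genes are red in the 3 EBD5 columns and blue elsewhere, while Hist1h2af is highest in EBD2 and H1fx in EBD6.

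The linker histone genes showed the largest ratio of the 5 replication types. H1 RNA summed to 24.7 and 17.8 CPM in EBD2, 183, 194 and 176 in EBD5, and 22.0 and 26.9 in EBD6, a ratio of 8.68 between the EBD5 and EBD2 means. Of the 6 genes 5 were higher in EBD5, where 34.9% of all genes tested were higher. Hist1h1e (ENSMUSG00000051627, chr13:23620629-23622558, minus strand, single exon) stood at 2.5, 1.76, 41.5, 44.5, 38.3, 4.58 and 3.35 CPM. Every EBD5 sample exceeded every other sample, and the change was 18.4-fold (log2 4.20 ± 0.19 SE, edgeR BH-adjusted p = 1.34e-08). Its annotated span overlaps that of Hist1h2be on the same strand, and in 5 of 9 libraries its estimated count was not whole, so some of its reads were divided between genes. Hist1h1c, with no such value, went from 5.99 and 3.87 CPM to 44.0, 46.8 and 46.5 CPM (log2 3.13 ± 0.19 SE). Hist1h1d, at 5.82 and 2.99 CPM in EBD2, reached 37.8, 38.3 and 33.1 CPM in EBD5 (log2 2.92 ± 0.22 SE). Hist1h1b rose by 2.88 and Hist1h1a by 2.66 on the log2 scale. Hist1h1t, the H1 gene of spermatocytes, was the exception with 0.998 and 1.06 CPM in EBD2 and 1.80, 1.67 and 1.89 CPM in EBD5. It was not called (log2 0.80 ± 0.34 SE, edgeR BH-adjusted p = 0.0762), although its EBD2 and EBD5 samples did not overlap.

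H4 and H2B followed H1. H4 RNA summed to 20.2 and 16.9 CPM in EBD2 and to 104, 108 and 103 CPM in EBD5, a ratio of 5.66. Of 13 genes 12 were tested and called higher in EBD5, where 34.9% of all genes tested were higher. However, 8 of the 12 reached the filter's level in EBD5 alone and 2 in all groups, so the filter largely fixed this count. Hist1h4d (ENSMUSG00000061482, chr13:23581598-23582735, plus strand) was the H4 gene with the most counts over all libraries, at 9.07, 7.40, 30.7, 27.2, 26.8, 4.4 and 3.61 CPM. It rose by 1.75 ± 0.15 SE on the log2 scale (edgeR BH-adjusted p = 1.60e-06) and its EBD5 samples lay above the rest. Hist1h4f rose from 0.832 and 0.528 CPM to 13.1, 12.2 and 14.7 CPM (log2 4.17 ± 0.40 SE). Hist1h4n had 1 count over the EBD2 libraries, in replicate 3, and 114 over those of EBD5, a ratio of 120 with a 95% counting interval of 21.1 to 4774. Hist1h4i, one of the more abundant H4 genes in EBD2 at 4.08 and 4.4 CPM, changed less, to 13.5, 10.7 and 14.5 CPM (log2 1.61 ± 0.22 SE).

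H2B RNA summed to 28.3 and 27.6 CPM in EBD2 and to 121, 108 and 112 CPM in EBD5, a ratio of 4.07. Of the 15 tested H2B genes 13 were higher, 1 was lower and 1 was not called, where 34.9% of all genes tested were higher. However, 9 of the 15 reached the filter's level in EBD5 alone and 5 in all groups, so the filter largely fixed this count. Hist1h2bb (ENSMUSG00000075031, chr13:23746734-23747241, plus strand) stood at 0.998, 0.352, 14.6, 11, 15.7, 0.881 and 1.1 CPM. The EBD5 samples stood far from the other 4, and the log2 change was 4.12 ± 0.33 SE (edgeR BH-adjusted p = 1.09e-06). Hist1h2bl rose by 4.4 ± 0.51 SE on the log2 scale from 5 counts over the EBD2 libraries to 108 over those of EBD5, or by 6.06 without EBD2 replicate 3, which held most of the EBD2 counts. Hist2h2bb of the Hist2 cluster went from 2.83 and 3.35 CPM to 18.5, 14.7 and 19.5 CPM (log2 2.53 ± 0.27 SE), with estimated counts that were not whole in all 9 libraries. Hist1h2bc was lower in EBD5, at 11.9 and 11.1 CPM in EBD2 and 7.01, 8.52 and 9.25 CPM in EBD5 (log2 -0.49 ± 0.16 SE, edgeR BH-adjusted p = 0.0188). That call ended in DESeq2 (adjusted p = 0.154), in a test against a fold of 1.5 and without EBD5 replicate 1. Hist2h2be had 3.08 and 2.82 CPM in EBD2 and 2.7, 2.34 and 1.51 CPM in EBD5 and was not called (edgeR BH-adjusted p = 0.277). In EBD2, Hist1h2bc held the largest part of the H2B sum, and in EBD5 it was passed by genes such as Hist1h2bg (16.7, 16 and 11.9 CPM).

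H3 RNA summed to 11.1 and 8.81 CPM in EBD2 and 35.8, 30.1 and 26.4 CPM in EBD5, a ratio of 3.10. Of 7 tested genes 6 were higher and 1 was not called, where 34.9% of all genes tested were higher. Since 5 of the 7 reached the filter's level in EBD5 alone and none in all groups, the filter largely fixed this count too. Hist1h3e had the largest log2 change of the H3 genes, from 0.915 and 1.06 CPM to 10.1, 6.69 and 7.74 CPM (log2 3.06 ± 0.32 SE). Hist1h3d, whose stem-loop is shown above, had 1.91 and 1.94 CPM in EBD2 and 1.98, 1.67 and 2.27 CPM in EBD5. Its samples overlapped and it was not called (log2 0.03 ± 0.31 SE, edgeR BH-adjusted p = 0.948). The calls of Hist1h3a and Hist1h3g (log2 1.29 and 1.08) each ended in DESeq2 and without EBD2 replicate 3, and that of Hist1h3g also without EBD5 replicate 1 or 2.

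H2A had the smallest ratio of the 5 types, and the size of that ratio depended on 1 gene, Hist1h2af. Its RNA summed to 29.9 and 32.8 CPM in EBD2, 47.5, 43.6 and 37.0 CPM in EBD5, and 16.4 and 16.5 CPM in EBD6, a ratio of 1.36 between EBD5 and EBD2. Without Hist1h2af the H2A sum was 16.2 CPM in EBD2 and 38.7 CPM in EBD5, a ratio of 2.40. This was still below the ratio of H3 (3.10), the next smallest. EBD6 then stood at 0.895 times EBD2 in place of 0.524. Of 18 genes 7 were tested, with 4 higher, 1 lower and 2 not called, where 34.9% of all genes tested were higher and 35.1% lower. Of the 7, 2 reached the filter's level in EBD5 alone. Hist1h2af (ENSMUSG00000061991, chr13:23533906-23534304, plus strand) was the gene that went the other way, at 13.3, 17.1, 3.78, 4.01, 4.16, 2.11 and 1.87 CPM. The 3 groups did not overlap, and it fell by 1.91 ± 0.19 SE on the log2 scale in EBD5 (edgeR BH-adjusted p = 6.06e-06). With the median of genes of like GC content and length removed it was -1.19, and its counts were not whole in 6 of 9 libraries. Hist2h2ac rose by 2.88 ± 0.35 SE on the log2 scale, from 0.998 and 0.528 CPM to 7.01, 6.69 and 4.91 CPM. Hist3h2a, on chromosome 11, went from 6.57 and 7.57 CPM to 18, 17.9 and 15.1 CPM (log2 1.29 ± 0.16 SE), with no whole count in any library, and it overlaps Trim17 on the same strand. The other calls in H2A were less stable. That of Hist1h2ab (5.39, 1.5 and 1.89 CPM in EBD5) ended without EBD2 replicate 2 or 3, and that of Hist1h2ak (log2 1.05) without EBD2 replicate 2 or 3, EBD5 replicate 1 or 2, or EBD6 replicate 1, and in DESeq2 and limma-voom. Hist1h2ac and Hist1h2ae were not called (edgeR BH-adjusted p = 0.416 and 0.0638), but Hist1h2ae passed without EBD2 replicate 3 (adjusted p = 0.00919) or EBD5 replicate 2 (0.0487).

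**Figure D3:**
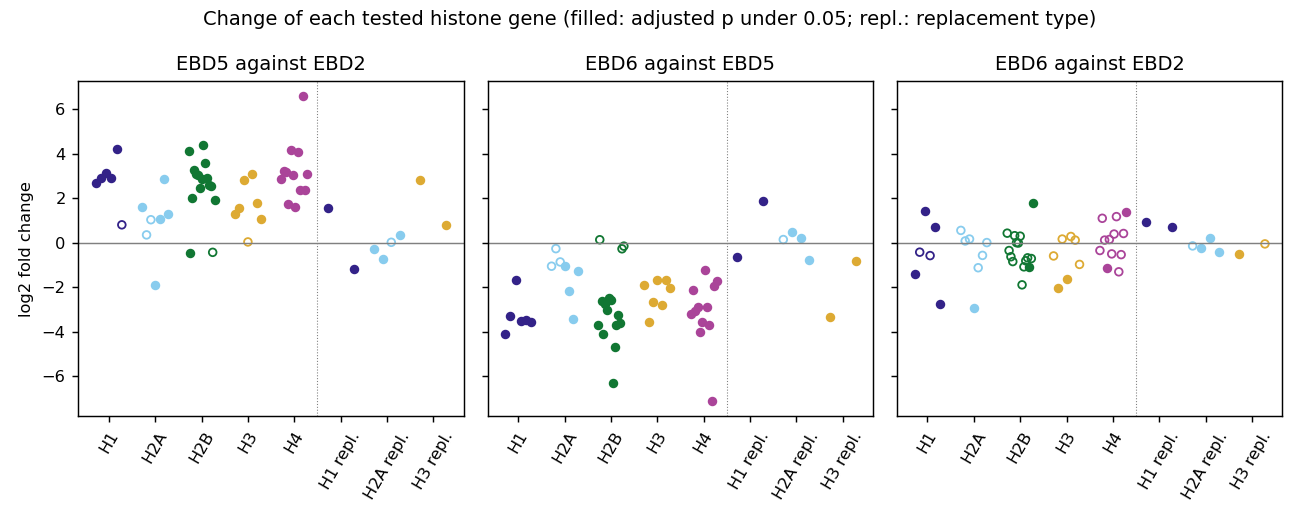
Log2 fold change (y axis) of each tested gene by type (x axis) in the 3 comparisons, with filled points for an edgeR adjusted p under 0.05 and open points for the rest. All 12 H4 genes lie above 0 in the left panel and below it in the middle panel, and most replication genes of the right panel are open.

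Many H2A and H2B genes sit head to head and share the stretch between their starts. There were 12 such pairs with starts within 500 bases of each other. In 7 of them the H2B gene was called higher in EBD5, and in 2 the H2A gene was, while 8 of the H2A partners were not tested. Over all genes tested, 34.9% were higher. Of those 7 H2B genes only Hist1h2bg reached the filter's level in all groups, and the rest did so in EBD5 alone. The filter therefore largely fixed these counts, and they do not compare H2B with H2A. Per kilobase the H2B gene had the higher level in 8 pairs in EBD5 and in 5 pairs in EBD2 and in EBD6. Hist1h2ae and Hist1h2bg start 176 bases apart, and stood at 1.97 and 2.76 CPM per kb in EBD2 but at 3.48 and 24.1 in EBD5. Hist1h2ai, the partner of Hist1h2bl, was listed at 0 in all groups. The reverse held for Hist2h2ac and Hist2h2be, 239 bases apart, where the H2A gene was called higher and the H2B gene was not called. Identical copies limit these values. Hist2h2aa1 and Hist2h2aa2, and Hist1h2bq and Hist1h2br, were listed at 0 in every library, so no read was assigned to either copy of these pairs. Whether reads that fit both copies were left out of the sums cannot be told here. Elsewhere, reads that fit several copies may have been assigned to any of them.

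By genome position, the Hist1 cluster on chromosome 13 (chr13:21715763-23934851) held 54 of the 67 genes in stretches of 18, 5, 29 and 2 genes. Its RNA summed to 96.9 and 86.3 CPM in EBD2, 431, 430 and 401 in EBD5, and 72.9 and 71.5 in EBD6, a ratio of 4.59 between EBD5 and EBD2. Of its 40 tested genes 34 were higher, 2 lower and 4 not called, where 34.9% of all genes tested were higher and 35.1% lower. However, 22 of the 40 reached the filter's level in EBD5 alone. The ratio was 7.04 in stretch 1, 3.67 in stretch 2 and 4.41 in stretch 3. The calls were 9 higher of 9 tested, 3 of 3, and 22 higher and 2 lower of 28, but 7, 2 and 13 of these tested genes reached the filter's level in EBD5 alone, so the counts do not rank the stretches. The last stretch holds the testis genes Hist1h2aa and Hist1h2ba, neither of which was tested. Hist2 on chromosome 3 (chr3:96219865-96270132, 10 genes) had a ratio of 3.44 with 3 of 4 tested genes higher. Of these 4, 2 reached the filter's level in EBD5 alone. Hist3 on chromosome 11 (chr11:58948920-58956830) had 2.54 with both genes higher. Hist4h4, the single gene of Hist4 on chromosome 6, went from 0.499 and 0.528 CPM to 4.31, 4.18 and 4.91 CPM (log2 3.10 ± 0.35 SE).

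**Figure D4:**
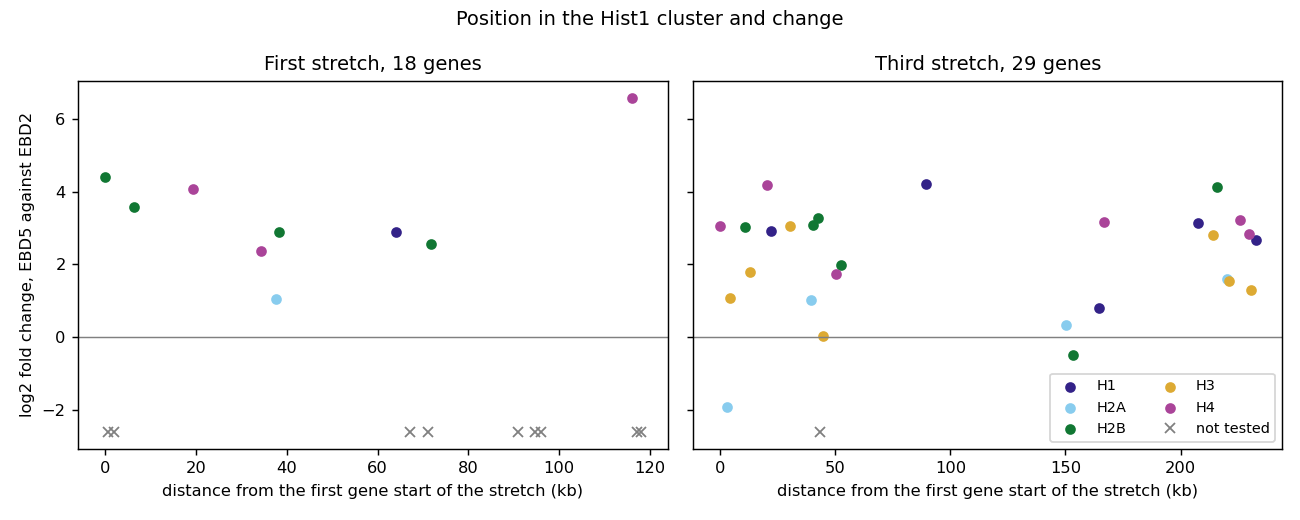
Log2 fold change of EBD5 against EBD2 (y axis) of the replication genes in stretches 1 and 3 of the Hist1 cluster by distance in kb from the stretch's first gene start (x axis), coloured by type, with crosses at the bottom for genes not tested. Genes with large and small changes lie side by side, and H2A genes such as Hist1h2af (-1.91) lie near H2B and H4 genes above 3.

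Annotated transcripts differ in where they end, and the replication genes were split by this. In 23 genes the annotated transcript ended within 100 bases after the stem-loop. In another 23 it ran on for longer, and in 21 no stem-loop was found. Some of the 21 have short annotated transcripts, such as Hist1h2bl and Hist1h2bn (381 bases each) and Hist1h4k (312 bases). A stem-loop beyond the annotated end could not be found. The genes that end within 100 bases of it summed to 16.1 and 11.1 CPM in EBD2 and 108, 94.1 and 99.0 CPM in EBD5, a ratio of 7.39. All 16 tested were called higher, but 13 of them reached the filter's level in EBD5 alone and none in all groups, so that count was largely fixed by the filter. Genes whose transcript runs on had a ratio of 5.42, with 17 higher and 4 not called of 21 tested, 9 of which passed through EBD5 alone. Genes with no stem-loop in the annotation had a ratio of 2.43, with 7 higher, 2 lower and 1 not called of 10 tested, 3 of which passed through EBD5 alone. The counts of calls are therefore no comparison of the classes, and of all genes tested 34.9% were higher and 35.1% lower. Nor do the ratios rank them. The 2 lower genes, Hist1h2af and Hist1h2bc, held 15.2 and 11.5 of the 47.2 CPM of the class without a stem-loop in EBD2. The median log2 changes of the tested genes were 2.87, 2.35 and 2.45 in the 3 classes. Genes that passed through EBD5 alone weigh on these medians too, most in the first class. In EBD6 against EBD2 the ratios of the 3 classes were 0.919, 1.14 and 0.456. H2afx, the replacement gene with a stem-loop, did not follow these classes and was lower in EBD5, as described below.

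Promoter sequences are given for a linker histone gene, an H2B and an H4 gene that rose, the H2A gene that fell and the replacement gene H3f3b, because motifs of histone promoters differ between these types. Each is the stretch of 120 bases before the RefSeq start (build GRCm38.p6), with letters that match a searched motif on either strand in capitals.
Hist1h1e (chr13:23622559-23622678, minus strand): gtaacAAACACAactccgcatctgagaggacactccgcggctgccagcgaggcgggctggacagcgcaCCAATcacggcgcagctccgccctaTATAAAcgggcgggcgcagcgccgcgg
Hist1h2bb (chr13:23746614-23746733, plus strand): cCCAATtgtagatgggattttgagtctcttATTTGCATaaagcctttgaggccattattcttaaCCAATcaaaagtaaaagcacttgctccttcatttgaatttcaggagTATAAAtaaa
Hist1h4f (chr13:23551669-23551788, minus strand): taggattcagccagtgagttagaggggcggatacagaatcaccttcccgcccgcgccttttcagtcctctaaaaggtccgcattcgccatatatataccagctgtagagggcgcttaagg
Hist1h2af (chr13:23533755-23533874, plus strand): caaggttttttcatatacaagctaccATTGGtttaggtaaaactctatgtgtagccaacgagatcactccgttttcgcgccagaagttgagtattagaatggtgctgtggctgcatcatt
H3f3b (chr11:116024505-116024624, minus strand): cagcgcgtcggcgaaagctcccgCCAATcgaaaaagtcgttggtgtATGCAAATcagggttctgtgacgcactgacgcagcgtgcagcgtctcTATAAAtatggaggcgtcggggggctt
The motifs searched, on both strands of the window from 250 bases before to 50 after the start, were the octamer ATTTGCAT, which POU factors bind, the CCAAT box (CCAAT), bound by NF-Y, the TATA box (TATAAA) and the H1 box (AAACACA). None of these is contained in another. All 75 genes matched a RefSeq gene and 69 had a window. The CCAAT box was found in 85.5% of 62 replication genes against 37.9% of all 27025 windows, the TATA box in 56.5% against 14.2%, the octamer in 21.0% against 1.75% and the H1 box in 14.5% against 7.14%. The types differed. The H1 box was in 5 of 6 H1 genes (83.3%), the octamer in 38.9% of H2A and 37.5% of H2B genes and in no H1, H3 or H4 gene, and the CCAAT box in all H1, H2A, H2B and H3 genes with a window but in 25.0% of H4 genes. A match is a run of letters and not a measured binding site.

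Of the 8 replacement genes, all over the filter's level in every group, 4 were higher in EBD5 than in EBD2 (50%, against 34.9% of all genes tested), 3 lower (37.5%, against 35.1%) and 1 was not called. With 8 genes these shares are near those of all genes and are no result about the class. Both H3.3 genes were higher. H3f3a (ENSMUSG00000060743, chr1:180800832-180813943, minus strand) stood at 17.4, 17.3, 117, 130, 121, 12.2 and 12.1 CPM. The 3 groups did not overlap, and EBD5 was 7.07-fold above EBD2 (log2 2.82 ± 0.09 SE, edgeR BH-adjusted p = 9.06e-10). H3f3a has processed pseudogenes, its estimated counts were not whole in any library, and it overlaps H3f3aos and Gm17275 on the opposite strand, so its value is uncertain. H3f3b (ENSMUSG00000016559, chr11:116021912-116027962, minus strand), which encodes the same H3.3 protein, was the most abundant gene of the 75 in every group, at 314, 338, 581, 491, 596, 343 and 285 CPM (log2 0.77 ± 0.10 SE in EBD5 against EBD2). Its EBD5 samples lay above all others, while those of EBD2 and EBD6 overlapped.

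The replacement linker histones went in opposite directions. H1f0, the H1 variant that accumulates in differentiated and resting cells, stood at 40.3, 38.6, 113, 124, 108, 79.8 and 71.0 CPM, with no overlap between groups, and rose by 1.54 ± 0.09 SE on the log2 scale in EBD5 (edgeR BH-adjusted p = 7.51e-08). H1fx had 36.3, 30.6, 15.5, 13.5, 16.2, 55.3 and 55.7 CPM, lowest in EBD5 and highest in EBD6, and fell by 1.17 ± 0.11 SE on the log2 scale in EBD5 (adjusted p = 4.38e-06). With the median of protein-coding genes of like GC content and length removed this became -0.45.

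Among the H2A variants, H2afx was lower in EBD5, at 162 and 155 CPM in EBD2 against 99.1, 99.3 and 91.4 CPM (log2 -0.72 ± 0.06 SE, edgeR BH-adjusted p = 1.55e-06). Against genes of like GC content and length its change was 0.0, so it moved as their median did. H2afz, an H2A.Z gene, had 114 and 108 CPM in EBD2 and 153, 113 and 162 CPM in EBD5. Its call (log2 0.35 ± 0.14 SE, adjusted p = 0.0426) ended without EBD2 replicate 3, EBD5 replicate 1 or EBD5 replicate 3, and in limma-voom. H2afv, the other H2A.Z gene, was called lower (log2 -0.29 ± 0.11 SE, adjusted p = 0.0364), and that call ended without EBD2 replicate 3, EBD5 replicate 1 or EBD5 replicate 2, in DESeq2 and under both other scalings. H2afy, which encodes macroH2A1, stood at 136, 139, 138, 143 and 134 CPM and was not called (log2 0.01 ± 0.06 SE, adjusted p = 0.845).

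Between EBD5 and EBD6 most replication genes went down. In EBD6, 41 of the 67 were lower, none was higher, 6 were not called and 20 were not tested, by the same edgeR test. These 41 are 61.2% of the replication genes, where 33.3% of all genes tested were lower and 36.9% higher. Among the 15 that reached the filter's level in every group 12 were lower. The median log2 change was -2.79, against 0.04 over all genes tested and 0.41 over single-exon protein-coding genes. The 25 replication genes that passed the filter through EBD5 alone favour a low median here. This comparison and the preceding one share the EBD5 samples, so the values are set side by side only. All 6 H1, all 7 tested H3 and all 12 tested H4 genes were lower in EBD6, as were 12 of 15 H2B and 4 of 7 H2A genes. Of these tested genes 5 H3, 8 H4 and 9 H2B genes reached the filter's level in EBD5 alone, so the filter largely fixed those counts. Hist1h1e fell by 3.49 ± 0.16 SE on the log2 scale and Hist1h1a by 4.09 ± 0.15 SE. Hist1h1c fell less, by 1.70 ± 0.15 SE, to 10.7 and 15.7 CPM. Hist1h1t, not called in the first comparison, fell by 3.57 ± 0.45 SE to 4 counts over the EBD6 libraries. Hist1h2af fell again, by 1.04 ± 0.24 SE. Hist1h2bl had 2 counts over the EBD6 libraries against 108, a ratio of 93.8 (95% counting interval 25.3 to 784), and Hist1h4n had 1 against 114, a ratio of 198 (34.8 to 7889). The log2 change of Hist1h4n (-7.11) was -9.02 without EBD6 replicate 1 and -6.45 without EBD6 replicate 3. Without EBD6 replicate 2 that of Hist1h2bf went from -4.11 to -4.77, and without EBD6 replicate 1 that of Hist1h2bn went from -3.71 to -4.34 and that of Hist1h4f from -4.03 to -4.66. The replication genes without a call were Hist1h2ab, Hist1h2ac, Hist1h2ae, Hist1h2bc, Hist2h2be and Hist3h2ba.

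Of the replacement genes 3 were higher in EBD6 than in EBD5 (37.5%, against 36.9% of all genes tested), 4 lower (50%, against 33.3%) and 1 was not called. H3f3a fell by 3.34 ± 0.09 SE on the log2 scale, to 12.2 and 12.1 CPM, and H3f3b by 0.83 ± 0.10 SE. H1f0 fell by 0.63 ± 0.08 SE and H2afz by 0.78 ± 0.14 SE. H1fx rose 3.69-fold (log2 1.88 ± 0.11 SE, edgeR BH-adjusted p = 9.85e-08), or by 1.05 on the log2 scale with GC content and length removed. H2afx (log2 0.48 ± 0.06 SE) and H2afy (0.21 ± 0.06 SE) were also higher, but both turned, to -0.36 and -0.16, when the median of genes of like GC content and length was removed. H2afv was not called (adjusted p = 0.281).

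Few replication genes were called between EBD6 and EBD2. In EBD6, 4 replication genes were higher, 7 lower, 36 not called and 20 not tested, against 33.8% of all genes tested called higher and 32.3% lower. The shares are 6.0% and 10.4% of the 67 genes, the 20 untested ones included, and the median log2 change was -0.36. Of the tested genes 25 reached the filter's level in EBD5 alone and so lay under it in both groups compared here. Among the 15 that reached it in every group 2 were higher and 4 lower. With no filter 9 histone genes were higher and 10 lower, against 20.3% and 16.6% of genes. A missing call does not show that levels were alike. The H1 genes split. Hist1h1c was higher in EBD6 (log2 1.43 ± 0.21 SE, edgeR BH-adjusted p = 1.23e-04), and Hist1h1e too (0.71 ± 0.25 SE, adjusted p = 0.0277), though that call ended in DESeq2 (0.0624), in limma-voom (0.0589), with the EBD2 and EBD6 samples alone and without EBD2 replicate 1 or 3. Hist1h1a fell by 1.42 ± 0.19 SE and Hist1h1t by 2.77 ± 0.50 SE. The genes outside the Hist1 and Hist2 clusters included Hist3h2ba (log2 1.77 ± 0.46 SE) and Hist4h4 (1.39 ± 0.40 SE; adjusted p = 0.0927 in DESeq2), both higher in EBD6. The call of Hist4h4 also ended without EBD2 replicate 2. Hist1h2af had the largest drop, by 2.94 ± 0.21 SE from 13.3 and 17.1 to 2.11 and 1.87 CPM. Hist1h4d, Hist1h3b, Hist1h3d and Hist2h2bb fell by 1.14, 2.04, 1.63 and 1.1 on the log2 scale. The call of Hist1h3d ended in DESeq2 (adjusted p = 0.0507) and that of Hist2h2bb without EBD2 replicate 3.

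Of the replacement genes 3 were higher in EBD6 than in EBD2 and 3 lower, 37.5% each way, near the 33.8% and 32.3% of all genes tested. H1f0 rose by 0.91 ± 0.09 SE and H1fx by 0.71 ± 0.10 SE on the log2 scale, so both replacement H1 genes stood above their EBD2 levels. H2afy was higher by 0.23 ± 0.06 SE. H3f3a fell by 0.51 ± 0.11 SE, H2afz by 0.43 ± 0.15 SE and H2afx by 0.24 ± 0.06 SE. The call of H2afz ended without EBD2 replicate 3, that of H2afx with no filter and that of H2afy in DESeq2. H3f3b and H2afv were not called (edgeR BH-adjusted p = 0.666 and 0.272).

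Of 23 tested genes for the transcription and 3-prime end processing of histone mRNA, EBD5 had 5 above EBD2 (21.7%, against 34.9% of all genes tested) and 9 below (39.1%, against 35.1%), with a median log2 change of -0.06. Slbp, the gene of the stem-loop binding protein, stood at 86.0 and 97.4 CPM in EBD2, 108, 141 and 111 in EBD5, and 100.2 and 84.5 in EBD6 (log2 0.40 ± 0.12 SE in EBD5 against EBD2). Npat, whose product activates histone gene transcription, had 143, 142, 180, 198, 185, 137 and 132 CPM (log2 0.39 ± 0.06 SE). Both rose in EBD5 and fell by 0.40 and 0.48 in EBD6. Casp8ap2 (log2 0.27) and Lsm1 (0.27) were also higher in EBD5. The cleavage factor genes Cpsf3 (-0.64), Fip1l1 (-0.64) and Cpsf4 (-0.49), and Upf1 (-0.56), which takes part in histone mRNA decay, were lower. In EBD6 against EBD5, 6 were higher (26.1%, against 36.9% of all genes tested) and 8 lower (34.8%, against 33.3%). Upf1 (0.98) and Zfp473 (-0.84), which encodes a U7 complex component, led these. In EBD6 against EBD2, 4 were higher (17.4%, against 33.8%) and 9 lower (39.1%, against 32.3%).

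Histone chaperones and exchange factors escort histones and load them onto DNA. Of 31 such genes tested, EBD5 had 7 above EBD2 (22.6%, against 34.9% of all genes tested) and 15 below (48.4%, against 35.1%). The median log2 change was -0.16. Set (0.75), Asf1a (0.46), Rbbp7 (0.36) and Spty2d1 (0.34) led the rises, and Tonsl (-1.0), Nasp (-0.83), Ruvbl2 (-0.82) and Supt6 (-0.80) the falls. Chaf1b, a subunit of the replication-coupled assembly factor CAF-1, stood at 147, 158, 95.6, 93.9, 89.3, 120 and 109 CPM and fell by 0.71 ± 0.07 SE. Of the H3.3 loading factors, Daxx fell by 0.37, and Hira and Atrx were not called (edgeR BH-adjusted p = 0.15 and 0.89), nor was Asf1b (0.11). In EBD6 against EBD5, 11 were higher (35.5%, against 36.9% of all genes tested) and 13 lower (41.9%, against 33.3%), with Ipo4 at 1.11, Set at -1.56 and Atrx at -1.24. Atrx stood at 798, 825, 771, 845, 797, 356 and 327 CPM, with the EBD6 samples below the rest. Against EBD2, 6 were higher in EBD6 (19.4%, against 33.8% of all genes tested) and 16 lower (51.6%, against 32.3%).

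Most S phase genes were lower in EBD5, where replication histone RNA was high. Of 26 tested, 19 were lower in EBD5 than in EBD2 (73.1%, against 35.1% of all genes tested) and 4 higher (15.4%, against 34.9%). The median log2 change was -0.35. From EBD5 to EBD6, 13 of the 26 were higher and 2 lower, with a median log2 change of 0.25. Among all genes tested, 36.9% were higher and 33.3% lower in EBD6 than in EBD5. E2f1, the gene of an S phase transcription factor, stood at 96.6, 97.0, 31.5, 34.1, 29.8, 59.7 and 68.4 CPM, lowest in all EBD5 samples (log2 -1.60 ± 0.09 SE). E2f2 (-1.50), the helicase component genes Cdc45 (-1.27) and Gins1 (-1.06) followed, and all were higher again in EBD6. Pcna, the replication clamp gene, was among the 4 that rose in EBD5, at 126, 144, 190, 171, 204, 126 and 101 CPM (log2 0.49 ± 0.10 SE), with Ccne2 (0.62), Ccna2 (0.25) and Rrm2 (0.20). In EBD6 against EBD2, 3 were higher (11.5%, against 33.8% of all genes tested) and 14 lower (53.8%, against 32.3%). Of the other histone variant genes, Cenpa of the centromere was not called in EBD5 against EBD2 (log2 0.15, adjusted p = 0.077 by edgeR), H2afj was higher (0.77) and H2afy2 lower (-0.33). The list of 11 variant genes also held Hist1h1t, a replication gene described above. Of the 11, 5 had no count, H2bfm, H2afb1, H2afb2, H2afb3 and Hils1.

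**Figure D5:**
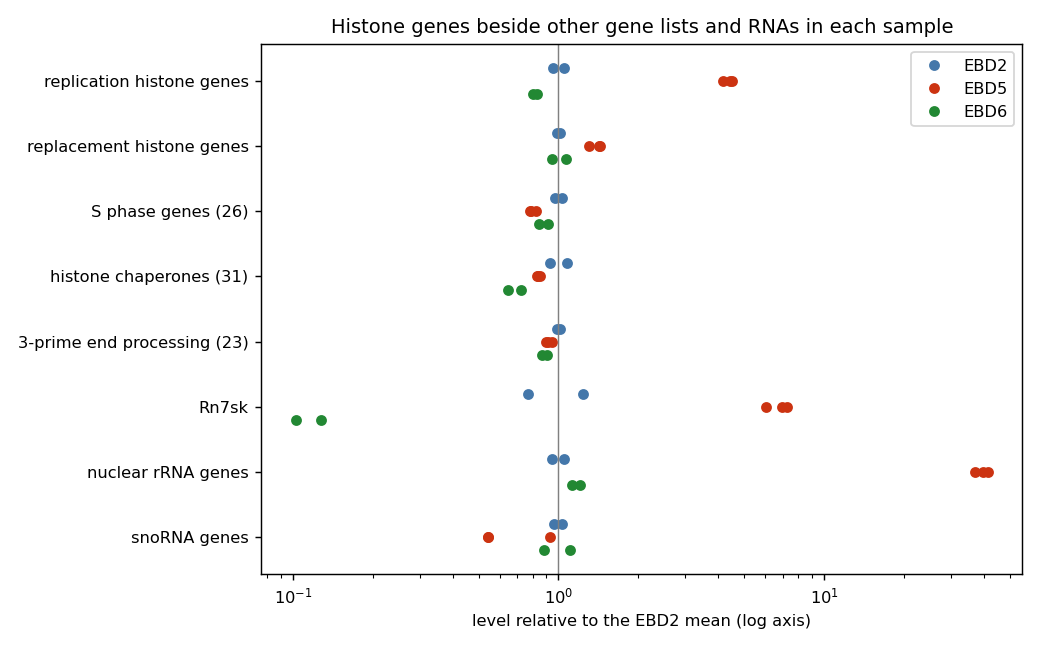
Level in each sample relative to the EBD2 mean (x axis, log scale) for summed histone genes, the summed gene lists, Rn7sk, and the shares of counts of nuclear rRNA and snoRNA genes. Replication histone genes, Rn7sk and rRNA lie above 1 in all EBD5 samples, while S phase genes lie below it.

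Some RNAs that normally have no poly(A) tail were also high in EBD5 libraries. Rn7sk, the 7SK RNA that restrains transcription elongation, stood at 3.16, 5.11, 30, 25.1, 28.7, 0.528 and 0.424 CPM, with no overlap between groups (log2 2.85 ± 0.20 SE in EBD5 against EBD2). Of 20 such RNAs 3 were tested, and Rpph1, the RNase P RNA, was lower in EBD5 (-0.55) while Rmrp was not called. Nuclear rRNA genes took 0.0186% and 0.0207% of counts in EBD2, 0.811%, 0.726% and 0.781% in EBD5, and 0.0236% and 0.0221% in EBD6, a ratio of 39.4 between EBD5 and EBD2. The same ratio was 36.0 for mitochondrial rRNA genes, 4.04 for processed pseudogenes, 2.19 for snRNA genes, 0.672 for snoRNA genes and 0.0545 for microRNA genes. The part of these RNAs, and of how much tailless RNA each library retained, in the replication histone values was not tested. With library sizes taken from other protein-coding genes alone, the replication sums were 112, 507 and 89.4 CPM in EBD2, EBD5 and EBD6, and 44 histone genes were still called higher in EBD5. Of the estimated counts above 0, 54 of 484 for replication genes (11%, in 11 genes) and 29 of 72 for replacement genes (40.3%, in 6 genes) were not whole, which marks reads divided between genes. Another gene overlapped 29 of the 75, and the strand setting of the counting is not given in the sources used here.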

How the data were processed

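The members and the gene lists were chosen with earlier results of these data known. The authors deposited expected counts for each gene, estimated from aligned reads and not scaled. The submitters' processing notes name RSEM 1.3.30, the STAR aligner 2.7.10a and the build mm10. A second table held EBD6 values identical in all 54233 rows. GENCODE M21 matched 54165 of 54232 IDs (99.9%). The row MR3, which names no gene (at most 0.0157% of counts), was left out. Expected counts were rounded.

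Within each group, pairs of libraries were set against each other by chi-square, using genes of 20 or more summed counts. EBD2 replicates 1 and 2 (0.949 per gene) and EBD6 replicates 2 and 3 (1.01) agree within sampling noise and were summed, and other pairs gave 1.21 to 4.31. Nothing in the labels says that replicates were separate cultures, so the p-values reflect sample spread alone, which may be technical. Genes kept by filterByExpr (16168) were tested with edgeR 4.0.16 (R 4.3.3), TMM scaling, the quasi-likelihood test in 1 fit of all groups (4 residual degrees of freedom, biological coefficient of variation 6.72%) and Benjamini-Hochberg adjustment, and the procedure was tested on simulated data. The SE is the log2 change divided by the square root of F. With 1 to 3 counts in a group, ratios carry 95% counting intervals, which cover counting error only. Every tested member could be named, with at most 4 genes per other list, comparison and direction, those changed most, plus 10 fixed genes. Alternatives were other scalings, filters and fits, DESeq2 1.42.0, limma 3.58.1 (voom), removal of GC and length bin medians, a replicate block and leaving out each library. Counting EBD5 replicates 1 and 3 as 1 sample was added after seeing the data.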

Additional observations from a re-analysis of the deposited data

How the results depend on the processing

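Histone genes higher in EBD5 than in EBD2 numbered 44 and stayed between 37 and 44 when any library was left out. They numbered 23 with a filter of 5 CPM in 3 libraries, which left 29 genes to test. Those lower in EBD6 than in EBD5 (45) numbered 24 with that filter and 41 to 47 without a library. A gene could pass that filter through the 3 EBD5 libraries alone, so its 2 counts are no stricter check. Lower in EBD5 than in EBD2 were 5, or 3 in DESeq2, 3 against a fold of 1.5 and 3 to 5 without a library (3 without EBD5 replicate 1). Higher in EBD6 than in EBD5 were 3, also without any library, but 1 against a fold of 1.5 and 1 with GC and length bins removed. For EBD6 against EBD2 the 7 higher became 4 in DESeq2, 3 against a fold of 1.5 and 6 to 8 without a library, and the 10 lower became 6 against a fold of 1.5 and 9 to 11 without a library. Removing the bin medians shifted 18 of 55 log2 changes by over 1.5-fold in EBD5 against EBD2, 23 in EBD6 against EBD5 and 0 in EBD6 against EBD2, and moved the replication medians from 2.66 to 3.01, -2.79 to -3.07 and -0.36 to -0.38. With it H2afx turned to 0.0 in EBD5 against EBD2, and H2afx and H2afy to -0.36 and -0.16 in EBD6 against EBD5. The cause was not tested.

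Scaled to other protein-coding genes, summed CPM of replication genes in EBD5 was 507 and that of replacement genes 926 in EBD2 and 1333 in EBD5. Without a library, replication sums were 108 to 114, 473 to 494 and 87.5 to 89.7, and replacement sums 893 to 912, 1242 to 1310.0 and 858 to 921. Replicate numbers did not pair the libraries (correlations -0.0879 to 0.054). With 9 separate libraries and the replicate number as a block, EBD5 against EBD2 gave 42 higher and 5 lower, with 3 and 43 in EBD6 against EBD5, and 8 and 12 in EBD6 against EBD2, against 42 and 5, 3 and 43, and 8 and 11 without the block. For the 20 untested genes a count of 0 in a group does not show absence. The sum of replication H2A without Hist1h2af was computed after seeing the data.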
